A study of Mus musculus with 6 samples.

Results

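Chemokines are small secreted or membrane-tethered proteins that direct the migration of leukocytes, and 10 of them are described here in sorted cells of mouse pancreatic tumours. They are Cxcl1, Cxcl2, Cxcl5, Cxcl10, Cxcl12, Cxcl16, Ccl2, Ccl7, Ccl20 and Cx3cl1, taken by gene symbol from a table of 25978 genes. All 10 passed the filter on low values that left 15783 genes for testing, and each passed on its mean over all 6 libraries. RNA was sequenced from 3 libraries of YFP-positive EpCAM- cells and 3 libraries of YFP-positive EpCAM+ cells of primary tumours. The alleles of every mouse included Pdx1-Cre, Trp53fl/fl and Rosa26LSL-YFP on a C57BL/6 background, and the mice were 5 to 7 weeks old. Pdx1-Cre acts in pancreatic progenitors, where it turns on YFP and deletes Trp53, so YFP marks the pancreatic lineage and not tumour cells alone. EpCAM is an epithelial surface protein, and the comparison asks how YFP-positive cells without it differ from those with it.

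The family is grouped by the spacing of conserved cysteines into CXC, CC and CX3C ligands, which act through G protein-coupled receptors on the responding cell. Cxcl1, Cxcl2 and Cxcl5 carry an ELR motif and attract neutrophils through Cxcr2, and Ccl2 and Ccl7 attract monocytes through Ccr2. Cxcl10 recruits activated T cells through Cxcr3, Ccl20 binds Ccr6, and Cxcl12 binds Cxcr4 and the scavenging receptor Ackr3. Cxcl16 and Cx3cl1 are made as transmembrane proteins, which the proteases ADAM10 and ADAM17 can cut to release a soluble chemokine. In pancreatic cancer, chemokines of tumour and stromal cells are known for drawing myeloid cells into the tumour.

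The deposited values are normalised levels on a log2 scale, so 1 unit is a doubling, and the sequencing depth of the libraries is unknown. They ran from -1.52 to 20.05. Pearson correlations over the tested genes were 0.977 to 0.989 for libraries of the same group and 0.854 to 0.883 for libraries of different groups. The sort is seen in Epcam itself, whose mean was 7.96 ± 0.64 for EpCAM- libraries and 14.95 ± 0.096 for EpCAM+ libraries (SD, n = 3 each). The epithelial keratin gene Krt19 averaged 11.56 ± 0.54 for EpCAM- libraries and 15.27 ± 0.10 for EpCAM+ libraries, and the mesenchymal gene Vim averaged 16.83 ± 0.30 for EpCAM- libraries and 13.58 ± 0.47 for EpCAM+ libraries (SD, n = 3 each). Epithelial keratin RNA was therefore present in both groups.

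Ccl2, Ccl7 and Cxcl12 were higher in EpCAM- cells, and Cxcl5, Cxcl16, Ccl20 and Cx3cl1 were lower. The neutrophil attractants Cxcl1 and Cxcl2 and the T-cell attractant Cxcl10 did not pass. Of the 10 genes, 7 passed limma's test (Benjamini-Hochberg adjusted p below 0.05), which 43.4% of all tested genes passed. Of these 7, 3 were higher and 4 lower in EpCAM-, against 20.3% and 23.1% of all tested genes. The values of EpCAM- and EpCAM+ libraries did not overlap for the same 7 genes, and they did not overlap for 56.3% of all tested genes. The median log2 fold change of the 10 genes was 0.15, and that of all tested genes was 0.0043. Each fold change is the EpCAM- mean minus the EpCAM+ mean of the log2 values, with limma's moderated SE. Because sorted populations were sequenced in bulk, a lower share of cells that make a chemokine and less of its RNA per cell cannot be told apart.

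**Figure D1:**
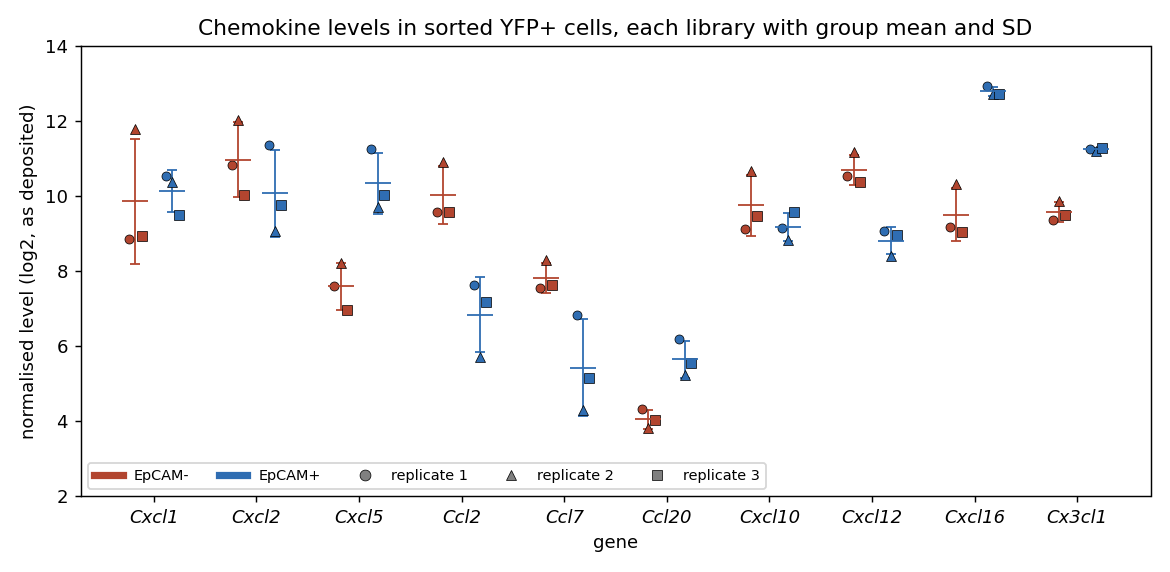
Normalised log2 levels of the 10 chemokines (y axis) in 3 EpCAM- libraries (red, left of each pair) and 3 EpCAM+ libraries (blue, right), with marker shapes for the replicate number and lines for the group mean and SD. The groups are separate for Cxcl5, Ccl2, Ccl7, Ccl20, Cxcl12, Cxcl16 and Cx3cl1 and overlap for Cxcl1, Cxcl2 and Cxcl10.

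Of the ligands of Cxcr2, Cxcl5 passed the test and Cxcl1 and Cxcl2 did not. Cxcl1 (ENSMUSG00000029380, GRCm38 chromosome 5, 90891241 to 90893115), an early-response neutrophil attractant, had log2 levels of 8.86, 11.79 and 8.94 in EpCAM- replicates 1, 2 and 3 and of 10.55, 10.37 and 9.50 in EpCAM+ replicates 1, 2 and 3. Replicate 2 of EpCAM- was above every EpCAM+ library and the other EpCAM- libraries were below all of them. The log2 fold change of Cxcl1, -0.28 ± 0.77 (SE), did not pass in limma (adjusted p = 0.800). Without EpCAM- replicate 2 it was -1.24 and passed (adjusted p = 0.0248), and over all alternatives the adjusted p lay between 0.0248 and 1.00. The direction turned without EpCAM- replicate 1 (0.22) and without EpCAM- replicate 3 (0.19). Cxcl2 (chromosome 5, 90903871 to 90905938), its close paralogue, stood at 10.83, 12.04 and 10.04 in EpCAM- replicates 1, 2 and 3 and at 11.36, 9.07 and 9.77 in EpCAM+ replicates 1, 2 and 3. EpCAM- replicate 2 was again the highest library, and the groups overlapped. The log2 fold change of Cxcl2 was 0.90 ± 0.68 (SE, adjusted p = 0.322 in limma).

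Cxcl5 (chromosome 5, 90759360 to 90761624), which is made by epithelial cells in several tissues, fell. It was at 7.61, 8.21 and 6.97 in EpCAM- replicates 1, 2 and 3, against 11.26, 9.72 and 10.04 in EpCAM+ replicates 1, 2 and 3. Every EpCAM- library was below every EpCAM+ library. The log2 fold change was -2.74 ± 0.46 (SE, adjusted p = 0.00302 in limma), and the EpCAM- level was 0.149 times the EpCAM+ level. Within a library, the difference of Cxcl5 from Cxcl2 cancels any scaling of that library. This difference, Cxcl5 minus Cxcl2, was -3.22, -3.83 and -3.07 in EpCAM- replicates 1, 2 and 3, against -0.10, 0.64 and 0.26 in EpCAM+ replicates 1, 2 and 3. Cxcl5 stood above Cxcl2 in EpCAM+ replicates 2 and 3. The difference was thus lower in each EpCAM- library than in any EpCAM+ library. An exact two-sided permutation test gave p = 0.1 for this difference, the smallest p that 3 libraries against 3 allow, and 0.167 after Benjamini-Hochberg adjustment over the 5 pairs compared. The difference of Cxcl5 from Cxcl1 was -1.25, -3.58 and -1.97 in EpCAM- replicates 1, 2 and 3, against 0.71, -0.65 and 0.53 in EpCAM+ replicates 1, 2 and 3, likewise without overlap (exact permutation p = 0.1, adjusted 0.167). Cxcl1 minus Cxcl2 averaged -1.11 ± 0.86 for EpCAM- libraries and 0.070 ± 1.09 for EpCAM+ libraries (SD, n = 3 each, exact permutation p = 0.3).

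Cxcl1, Cxcl2 and Cxcl10, the 3 genes that did not pass here, are chemokines that NF-kB is known to turn on. This does not set them apart, since Ccl2, known for the same, passed as higher in EpCAM- cells. The upstream sequences of Cxcl1, Cxcl2 and Cxcl10 are shown because they hold matches to motifs of inflammatory transcription factors. The RefSeq promoter table, on build GRCm38.p6, held 6 of the 10 genes. Cxcl5, Cxcl16, Ccl2 and Ccl7, which all passed the test, were absent from it and were not searched for motifs. Each sequence is given 5′ to 3′ on the gene's strand and runs from 250 to 31 bases before the RefSeq start. Capitals mark matches on either strand to GGGA, any 4 bases and CC (NF-kB), to TGANTCA with N any base (AP-1), or to GAAA, any 2 bases and GAAA (the interferon-stimulated response element, ISRE).
Cxcl1, chr5:90890995-90891214, + strand: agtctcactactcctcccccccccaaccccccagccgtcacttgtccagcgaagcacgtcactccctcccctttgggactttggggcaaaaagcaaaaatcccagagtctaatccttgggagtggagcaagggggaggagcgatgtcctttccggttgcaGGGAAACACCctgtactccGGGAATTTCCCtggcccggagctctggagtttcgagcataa
Cxcl2, chr5:90903649-90903868, + strand: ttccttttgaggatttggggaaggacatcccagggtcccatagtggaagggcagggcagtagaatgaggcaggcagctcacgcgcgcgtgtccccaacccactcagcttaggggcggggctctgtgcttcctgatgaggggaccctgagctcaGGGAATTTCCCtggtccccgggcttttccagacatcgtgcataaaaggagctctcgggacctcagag
Cxcl10, chr5:92348920-92349139, - strand: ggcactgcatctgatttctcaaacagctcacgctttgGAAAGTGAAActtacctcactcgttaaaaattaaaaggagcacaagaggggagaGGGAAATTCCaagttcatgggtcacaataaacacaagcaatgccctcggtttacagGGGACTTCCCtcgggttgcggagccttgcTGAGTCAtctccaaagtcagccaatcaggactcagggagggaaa
Cxcl1 and Cxcl2 share the run GGGAATTTCCC, which begins 71 bases before the start in Cxcl1 and 97 bases before it in Cxcl2 and which matches the NF-kB motif on both strands in overlapping positions. Cxcl1 holds a further match, GGGAAACACC, at 90 bases. Cxcl10 holds 2 places that match the NF-kB motif, an AP-1 match (TGAGTCA) and an ISRE match (GAAAGTGAAA), the last at 213 bases before the start. Ccl20, which was lower in EpCAM- cells, has an NF-kB match as well. In the windows of Cxcl12 and Cx3cl1 none of these motifs occurs. Among all 32851 promoter windows of this length, 15.5% hold the NF-kB motif, 6.12% the AP-1 motif and 2.63% the ISRE motif. A match describes the sequence and is not evidence of binding.

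The monocyte attractants Ccl2 and Ccl7 were higher in EpCAM- cells. Their genes are neighbours on chromosome 11, at 82035571 to 82037453 for Ccl2 and 82045712 to 82047525 for Ccl7. Ccl2 had log2 levels of 9.58, 10.91 and 9.57 in EpCAM- replicates 1, 2 and 3 and of 7.63, 5.71 and 7.17 in EpCAM+ replicates 1, 2 and 3. The lowest EpCAM- library lay above the highest EpCAM+ library. Ccl2 rose on the log2 scale by 3.18 ± 0.56 (SE, adjusted p = 0.00382 in limma), or 9.08-fold, the largest increase among the 10 genes. Ccl7, which binds Ccr2 as well as other receptors, stood at 7.56, 8.29 and 7.63 in EpCAM- replicates 1, 2 and 3 and at 6.83, 4.29 and 5.16 in EpCAM+ replicates 1, 2 and 3. Here too every EpCAM- library lay above every EpCAM+ library. Its rise of 2.40 ± 0.61 (SE) passed in limma (adjusted p = 0.0178), but it was lost without EpCAM- replicate 2 (adjusted p = 0.0563) or without EpCAM+ replicate 3 (adjusted p = 0.0654). Over all alternatives the adjusted p for Ccl7 lay between 0.00159 and 0.189. Without EpCAM+ replicate 1, where Ccl7 was highest of its group, the log2 fold change of Ccl7 was 3.10. Ccl7 minus Ccl2 within a library averaged -2.19 ± 0.37 for EpCAM- libraries and -1.41 ± 0.61 for EpCAM+ libraries (SD, n = 3 each, exact permutation p = 0.2).

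Ccl20 (chromosome 1, 83116766 to 83119167), which attracts Ccr6-positive lymphocytes and dendritic cells and is typical of mucosal epithelium, fell. Its log2 level stood at 4.32, 3.81 and 4.04 in EpCAM- replicates 1, 2 and 3 and at 6.19, 5.23 and 5.54 in EpCAM+ replicates 1, 2 and 3. No EpCAM- library reached an EpCAM+ library. The log2 fold change was -1.60 ± 0.30 (SE, adjusted p = 0.00489 in limma). Against a minimum log2 fold change of 1, it no longer passed (adjusted p = 0.269).

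Cxcl10 and Cxcl12, 2 CXC chemokines without the ELR motif, differed in outcome. Cxcl10 (chromosome 5, 92346638 to 92348889) is induced by interferon and was at 9.11, 10.68 and 9.46 in EpCAM- replicates 1, 2 and 3 and at 9.14, 8.82 and 9.58 in EpCAM+ replicates 1, 2 and 3. The groups overlapped, with EpCAM- replicate 2 the highest library, and Cxcl10 did not pass in limma (adjusted p = 0.297). Its log2 fold change was 0.57 ± 0.41 (SE). Cxcl12 (chromosome 6, 117168535 to 117181367), a homeostatic chemokine that stromal cells make in many tissues, was at 10.54, 11.16 and 10.38 in EpCAM- replicates 1, 2 and 3 and at 9.07, 8.40 and 8.97 in EpCAM+ replicates 1, 2 and 3. Its groups were apart, and it rose by 1.88 ± 0.25 (SE, adjusted p = 0.00112 in limma), or 3.69-fold.

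The transmembrane chemokines Cxcl16 and Cx3cl1 both fell, and both varied little among EpCAM+ libraries. Cxcl16 (chromosome 11, 70453983 to 70459984), the ligand of Cxcr6 and a scavenger receptor for oxidised lipoprotein, was at 9.18, 10.31 and 9.03 in EpCAM- replicates 1, 2 and 3 and at 12.93, 12.72 and 12.71 in EpCAM+ replicates 1, 2 and 3. No EpCAM- library came near the EpCAM+ range. Cxcl16 fell by 3.28 on the log2 scale (SE 0.32, adjusted p = 0.000254 in limma), the largest decrease of the 10, to 0.103 times the EpCAM+ level. Cx3cl1 (chromosome 8, 94772009 to 94782427), or fractalkine, was at 9.37, 9.87 and 9.50 in EpCAM- replicates 1, 2 and 3 and at 11.26, 11.21 and 11.29 in EpCAM+ replicates 1, 2 and 3. It fell by 1.67 on the log2 scale (SE 0.14, adjusted p = 0.000136 in limma). The EpCAM+ libraries of Cx3cl1 lay within 0.1 of each other, and all EpCAM- libraries were below them. Cxcl16 minus Cx3cl1 averaged -0.073 ± 0.46 for EpCAM- libraries and 1.54 ± 0.12 for EpCAM+ libraries (SD, n = 3 each), without overlap (exact permutation p = 0.1, the smallest possible, adjusted 0.167).

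**Figure D2:**
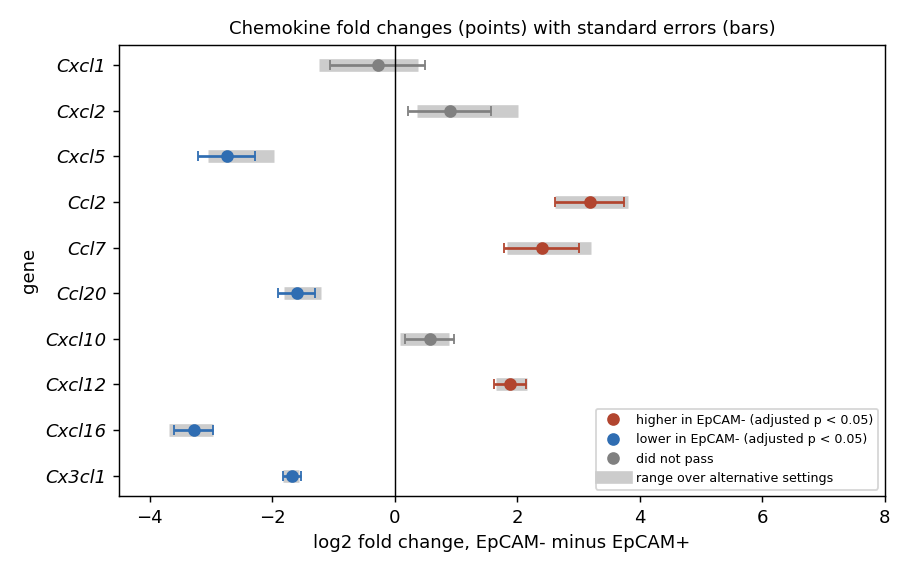
Log2 fold changes of the 10 chemokines, EpCAM- minus EpCAM+ (x axis), as points with standard errors, over grey bars for the range across the alternative settings. Ccl2, Ccl7 and Cxcl12 lie right of 0, and Cxcl5, Ccl20, Cxcl16 and Cx3cl1 lie left of it with their whole ranges, while the range of Cxcl1 crosses 0.

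Levels of different genes were set beside each other per kilobase of annotated exon, which assumes that every annotated exon is used. The annotated exons sum to between 801 bases for Ccl7 and 8176 bases for Cxcl12. In EpCAM- libraries the order of mean log2 level per kilobase was Cxcl2 (9.92), Ccl2 (9.83), Cxcl1 (8.96), Cxcl10 (8.58), Ccl7 (8.15), Cxcl16 (7.91), Cxcl12 (7.66), Cx3cl1 (7.60), Cxcl5 (6.70) and Ccl20 (3.55). Neighbours in this order overlapped between libraries, except that Cxcl5 lay below Cx3cl1 and Ccl20 below Cxcl5 in every library. In EpCAM+ libraries the order was Cxcl16 (11.19), Cxcl5 (9.44), Cx3cl1 (9.28), Cxcl1 (9.23), Cxcl2 (9.02), Cxcl10 (8.01), Ccl2 (6.65), Cxcl12 (5.78), Ccl7 (5.75) and Ccl20 (5.15). There Cxcl16 was above all others without overlap, and Cxcl10 was above Ccl2 without overlap, while the other neighbours overlapped. Cxcl16 ranked sixth in EpCAM- and first in EpCAM+ libraries.

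Libraries of the same group also differed in their chemokine levels. EpCAM- replicate 2 was the highest EpCAM- library for 9 of the 10 chemokines, all but Ccl20, and for 5052 of all 15783 tested genes. EpCAM+ replicate 1 was the highest EpCAM+ library for 8 of the 10, all but Cxcl10 and Cx3cl1, and for 6101 of all tested genes. In EpCAM- replicate 2, Cxcl1 was 1.92 above its group mean on the log2 scale, Cxcl2 1.07, Cxcl10 0.93 and Ccl2 0.89. In EpCAM+ replicate 1, Ccl7 was 1.41 above its group mean and Cxcl2 1.29. Without both of these libraries, an alternative chosen after seeing the data, 3 of the 10 genes were higher and 4 lower, the counts given above.

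**Figure D3:**
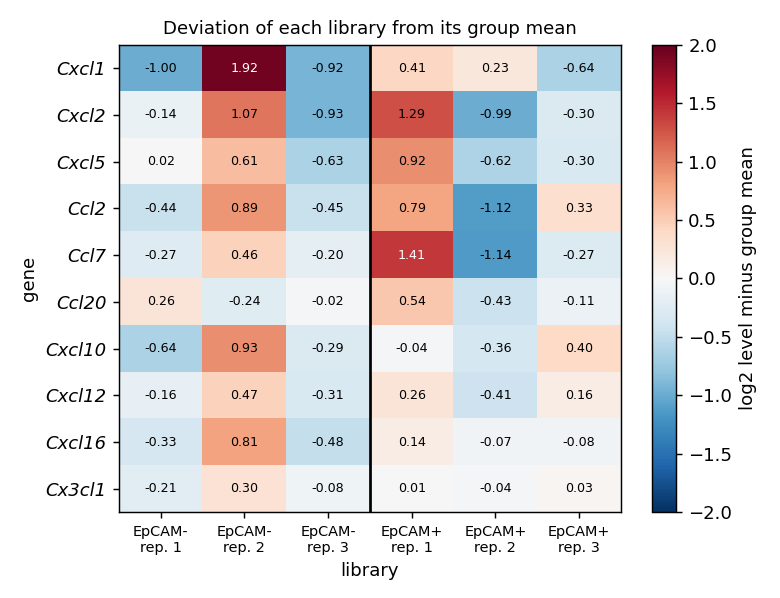
Log2 level of each chemokine minus the mean of its group (colour and printed value) in the 3 EpCAM- libraries (left) and the 3 EpCAM+ libraries (right). EpCAM- replicate 2 is positive for 9 of the 10 genes, most for Cxcl1 at 1.92, and EpCAM+ replicate 1 is positive for most genes, with Ccl7 at 1.41.

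Genes of NF-kB and interferon signalling, pathways known to turn on Cxcl1, Cxcl2, Ccl2 and Cxcl10, were read beside them. Of 16 NF-kB factors and feedback genes, all tested, 1 was higher, 5 were lower and 10 did not pass, with a median log2 fold change of -0.22. Among all tested genes, 20.3% were higher and 23.1% lower. Nfkb1, which encodes the p105 and p50 subunit, rose by 1.02 ± 0.12 (SE). Bcl3 (-1.40 ± 0.11, SE) and Nfkbiz (-0.53 ± 0.17, SE), which encode nuclear IkB proteins that can act as coactivators, and the inhibitor gene Nfkbib (-0.78 ± 0.16, SE) fell. Nfkbiz lost its call without EpCAM- replicate 1 or 3 or EpCAM+ replicate 1 or 3. The feedback gene Tnfaip3 did not pass. It was called lower in limma without EpCAM- replicate 2 (adjusted p = 0.0160) and with the replicate number as a block (adjusted p = 0.0286). The number of lower genes was 3 without EpCAM- replicate 1 or 3 or EpCAM+ replicate 3 and 7 without EpCAM- replicate 2. Over all alternatives it lay between 1 and 7. The number of higher genes was 2 without EpCAM- replicate 2. EpCAM- replicate 2 was the highest EpCAM- library for 14 of the 16 genes, as it was for 9 of the 10 chemokines. The feedback inhibitor gene Nfkbia, a rapid NF-kB target, stood at 12.67, 13.50 and 12.45 in EpCAM- replicates 1, 2 and 3, against 12.54 to 12.60 in EpCAM+ libraries, and did not pass.

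Of 18 interferon-response genes, all tested, 3 were higher, 1 was lower and 14 did not pass, with a median log2 fold change of 0.47. The shares over all tested genes were 20.3% higher and 23.1% lower. Ifit2 (2.49 ± 0.27, SE) and Ifit1 (2.33 ± 0.58, SE), which bind viral RNA or limit its translation, and Ddx58 (1.03 ± 0.29, SE), which encodes the sensor RIG-I, rose. Stat2 (-1.14 ± 0.35, SE), a mediator of type I interferon signals, fell. Ifit1 lost its call without EpCAM- replicate 3 or EpCAM+ replicate 1, Ddx58 without EpCAM+ replicate 1 or 2, and Stat2 when any 1 library other than EpCAM- replicate 2 was left out. The higher count was 7 without EpCAM- replicate 1 and 1 without EpCAM+ replicate 1. The lower count was 0 without EpCAM- replicate 1 or any EpCAM+ library and 2 without EpCAM- replicate 2. The mean log2 level of the list was 7.32, 9.30 and 8.40 in EpCAM- replicates 1, 2 and 3, against 7.45, 7.85 and 8.44 in EpCAM+ replicates 1, 2 and 3. Its highest library in each group, EpCAM- replicate 2 and EpCAM+ replicate 3, was also the highest library of its group for Cxcl10.

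**Figure D4:**
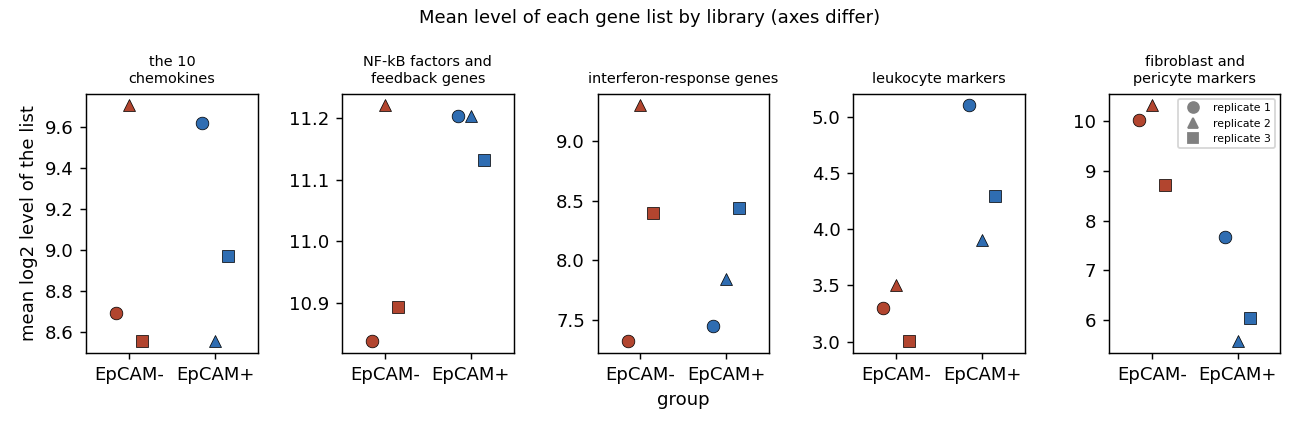
Mean log2 level (y axis, which differs between panels) of the 10 chemokines, NF-kB genes, interferon-response genes, leukocyte markers and fibroblast and pericyte markers in 3 EpCAM- libraries (left in each panel) and 3 EpCAM+ libraries (right). EpCAM- replicate 2 (triangle) is the highest EpCAM- library in all 5 panels, and EpCAM+ replicate 1 (circle) is the highest EpCAM+ library for chemokines, leukocyte markers and fibroblast markers.

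Among chemokine receptors, Ackr3 rose, and most others did not pass or were below the filter. Of 23 receptor genes, 21 were in the table and 10 were tested, of which 1 was higher, 2 were lower and 7 did not pass, with a median log2 fold change of 0.11. For comparison, 20.3% of all tested genes were higher and 23.1% lower. Ackr3, the scavenging receptor for Cxcl12, stood at 12.34, 11.98 and 12.71 in EpCAM- replicates 1, 2 and 3 and at 10.30, 10.45 and 9.97 in EpCAM+ replicates 1, 2 and 3. It rose by 2.10 ± 0.21 (SE, adjusted p = 0.000266 in limma), in the same direction as Cxcl12. Cxcr4, the signalling receptor for Cxcl12, averaged 8.64 ± 0.71 for EpCAM- libraries and 8.11 ± 1.02 for EpCAM+ libraries (SD, n = 3 each) and did not pass (adjusted p = 0.481 in limma). Without both EpCAM+ replicate 1 and EpCAM- replicate 3, Cxcr4 passed as higher in limma (log2 fold change 1.42, adjusted p = 0.0449). Cx3cr1, the receptor for Cx3cl1 and a gene of macrophages and monocytes, was at 3.29, 4.02 and 4.36 in EpCAM- replicates 1, 2 and 3 and at 7.14, 4.48 and 5.58 in EpCAM+ replicates 1, 2 and 3. It missed the threshold (adjusted p = 0.0582 in limma) and passed without EpCAM+ replicate 2 (adjusted p = 0.0176). Ccr2, the monocyte receptor for Ccl2 and Ccl7, averaged 3.19 ± 0.40 for EpCAM- libraries and 4.14 ± 0.76 for EpCAM+ libraries (SD, n = 3 each) and did not pass (adjusted p = 0.107 in limma). Cxcr2, Cxcr3, Cxcr6, Ccr6 and Ackr1 were below the filter, with log2 levels of at most 2.78, so no receptor partner of the neutrophil attractants, Cxcl10, Cxcl16 or Ccl20 among these was tested. Among the lower receptors was Ccrl2 (-1.86 ± 0.55, SE), a gene of myeloid cells, which lost its call without EpCAM- replicate 1 or 3. The count of lower receptors was 0 after quantile normalisation. It was also 0 without EpCAM- replicate 1 or 3 and 1 without EpCAM- replicate 2 or EpCAM+ replicate 1 or 3.

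Of 7 proteases that process chemokines, 6 were tested, of which 3 were higher, 1 was lower and 2 did not pass, with a median log2 fold change of 0.85. Over all tested genes 20.3% were higher and 23.1% lower. The gelatinase gene Mmp2, which can cleave Cxcl12 and Ccl7, rose by 5.55 ± 0.91 (SE) and Adam17 by 0.75 ± 0.13 (SE). Adam10 rose by 0.60 ± 0.16 (SE, adjusted p = 0.0187 in limma), a call that was lost without EpCAM+ replicate 2 (adjusted p = 0.0563) or EpCAM+ replicate 3 (adjusted p = 0.0693), and over all alternatives its adjusted p reached 1.00. The RNA of both ADAM genes was higher in EpCAM- cells and that of Cxcl16 and Cx3cl1 lower. The cut acts on the proteins, which were not measured, and a link between these RNA levels was not tested. Dpp4, which encodes a surface peptidase that trims the amino end of Cxcl10 and Cxcl12, fell by 3.29 on the log2 scale (SE 0.52). It was at 4.65, 3.16 and 2.78 in EpCAM- replicates 1, 2 and 3, against 6.50, 6.55 and 7.41 in EpCAM+ replicates 1, 2 and 3.

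Of 28 further chemokine ligands, 25 were in the table and 15 were tested, of which 1 was higher, 5 were lower and 9 did not pass, with a median log2 fold change of -0.74. All tested genes were higher in 20.3% and lower in 23.1% of cases. Cxcl17, a chemokine of mucosal epithelium, was at 3.02, 3.42 and 3.08 in EpCAM- replicates 1, 2 and 3 and at 8.18, 8.01 and 8.37 in EpCAM+ replicates 1, 2 and 3. Pf4, known from platelets and megakaryocytes, was at 2.06, 2.11 and 2.08 in EpCAM- replicates 1, 2 and 3 and at 5.22, 3.80 and 4.89 in EpCAM+ replicates 1, 2 and 3. Ccl3, a product of activated macrophages, was at 2.64, 2.98 and 2.36 in EpCAM- replicates 1, 2 and 3 and at 5.98, 3.57 and 3.97 in EpCAM+ replicates 1, 2 and 3. The EpCAM- means of Cxcl17, Pf4 and Ccl3 were below the filter on low values, so these genes were tested only through their EpCAM+ levels, and their calls are given as a description. Ccl5, which recruits T cells and monocytes, rose by 1.87 ± 0.29 (SE). Cxcl3, the further paralogue beside Cxcl1 and Cxcl2, averaged 6.38 ± 0.19 for EpCAM- libraries and 6.20 ± 0.48 for EpCAM+ libraries (SD, n = 3 each) and did not pass. The number of higher ligands was 2 without any 1 of the EpCAM- libraries, and 0 with a filter at a mean of 50, which leaves Ccl5 untested. The number of lower ligands was 2 with that filter and 3 without EpCAM- replicate 1, EpCAM- replicate 3 or EpCAM+ replicate 3. Ccl3 lost its call without any 1 of the EpCAM- libraries or EpCAM+ replicate 3, as well as after quantile normalisation, and its log2 fold change was -1.11 without EpCAM+ replicate 1.

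**Figure D5:**
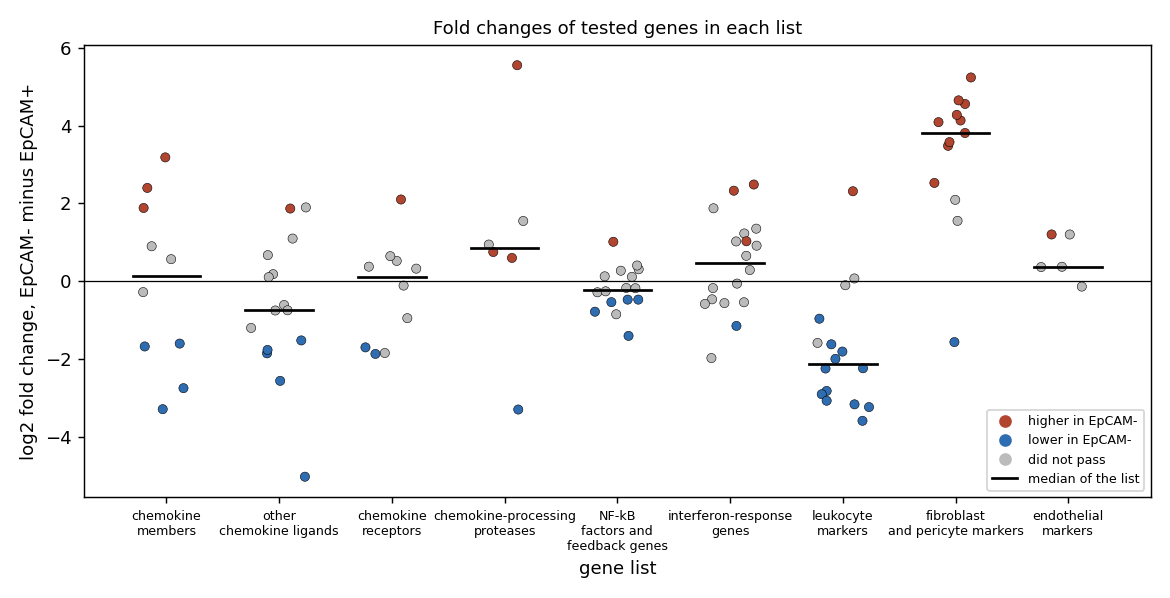
Log2 fold changes, EpCAM- minus EpCAM+ (y axis), of each tested gene in 9 gene lists (x axis), coloured by the limma call, with a line at the median of the list. The 10 chemokines spread to both sides of 0, leukocyte markers lie mostly below it and fibroblast and pericyte markers mostly above it.

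Markers of leukocytes and fibroblasts, cells that make chemokines themselves, moved mostly in opposite directions between the groups. Of 26 leukocyte markers, 16 were tested, of which 1 was higher, 12 were lower and 3 did not pass. Beside this, 20.3% of all tested genes were higher and 23.1% lower. Cd14 (-3.58 ± 0.17, SE), which some epithelial cells also express, and the complement genes C1qa (-3.23 ± 0.63, SE), C1qb (-3.16 ± 0.59, SE) and C1qc (-3.07 ± 0.66, SE) fell most, and Flt3 rose by 2.31 ± 0.38 (SE). The pan-leukocyte gene Ptprc stood at 4.71, 4.72 and 3.67 in EpCAM- replicates 1, 2 and 3 and at 7.63, 5.51 and 5.93 in EpCAM+ replicates 1, 2 and 3. The summed back-transformed level of the 26 markers lay between 1092 and 1355 in EpCAM- libraries and between 4565 and 11122 in EpCAM+ libraries, and EpCAM+ replicate 1 was the highest EpCAM+ library for all 16 tested markers. The T-cell genes Cd3e and Cd3g and the cytotoxic gene Nkg7 lay between -1.52 and -1.40 in every library, near the lowest value of the table, and the neutrophil gene Ly6g was at most 0.10. The number of lower leukocyte markers was 6 without EpCAM- replicate 3 or EpCAM+ replicate 3. With a filter at a mean of 50, which leaves Flt3 untested, 0 markers were higher and 8 lower.

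Of 13 fibroblast and pericyte markers, all tested, 10 were higher, 1 was lower and 2 did not pass, against 20.3% higher and 23.1% lower among all tested genes. Thy1 (5.24 ± 1.09, SE), Col1a2 (4.65 ± 1.09, SE), Dcn (4.56 ± 0.88, SE) and Col1a1 (4.27 ± 1.03, SE) rose most, and the pericyte gene Rgs5 fell by 1.56 on the log2 scale. The mesenchymal genes Zeb1 (2.21 ± 0.14, SE), Prrx1 (6.57 ± 0.52, SE), Twist1 (3.32 ± 0.21, SE) and Snai2 (3.54 ± 0.28, SE) rose too, like Vim. Whether mesenchymal tumour cells or fibroblasts made the RNA of the 13 markers was not tested. The summed back-transformed level of the 13 markers lay between 19951 and 92087 in EpCAM- libraries and between 2823 and 12114 in EpCAM+ libraries. Among EpCAM- libraries replicate 3 had the lowest sum, and among EpCAM+ libraries replicate 1 had the highest. EpCAM+ replicate 1 was also the highest EpCAM+ library for 8 of the 10 chemokines and for all 16 tested leukocyte markers. These 8 included the higher Ccl2, Ccl7 and Cxcl12 and the lower Cxcl5, Cxcl16 and Ccl20. Among EpCAM- libraries the sum was highest in replicate 1. Averaged on the log2 scale instead, the 13 markers peaked in replicate 2 (10.32), above replicate 1 (10.02) and replicate 3 (8.72). Ccl2, Ccl7 and Cxcl12 were also highest in replicate 2. By single genes, 7 of the 13 markers were highest in replicate 2, 4 in replicate 1 and 2 in replicate 3. Leaving out EpCAM- replicate 3 and EpCAM+ replicate 1 widened the gap in fibroblast markers between the groups. It gave Col1a1 a log2 fold change of 6.16, so it does not reduce the difference in these markers. Without these 2 libraries Ccl2 (3.80), Ccl7 (3.20), Cxcl12 (2.17), Cxcl5 (-1.97), Cxcl16 (-2.97), Ccl20 (-1.32) and Cx3cl1 (-1.63) passed in limma. Cxcl2 passed too, at 2.01 (adjusted p = 0.0230, between 0.0230 and 1.00 over all alternatives). The number of higher fibroblast markers was 6 without EpCAM+ replicate 3, where Col1a1 and Col1a2 lost their calls, and Rgs5 lost its call without EpCAM- replicate 1 or 2 or EpCAM+ replicate 2 or 3. Of 10 endothelial markers, 5 were tested, and only Kdr passed, against 43.4% of all tested genes. Kdr was higher in EpCAM- by 1.20 ± 0.41 (SE), a call lost without EpCAM- replicate 2 or 3 or EpCAM+ replicate 1 or 3. The part of these cells in the chemokine levels was not tested.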

How the data were processed

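RNA of sorted YFP-positive cells was measured in 6 libraries, which GEO's labels assign to EpCAM- or EpCAM+. A KAPA mRNA kit and an Illumina HiSeq sequencer were used, per the labels' protocols. STAR 2.5.2, RSEM and DESeq2 1.24.0 are named with GRCm38 per the submitters' processing notes, with no role or order. The authors deposited log2 values that they had normalised between libraries. The transform, the annotation and whether counting used strand are not given in the sources used here. Such a transform can shrink differences of low genes.

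Symbols were matched by Ensembl identifier to GENCODE M21 (25831 matched, 147 did not). Genes whose back-transformed values averaged at least 10 were compared as deposited. The test was limma 3.58.1 (R 4.3.3) with a mean-variance trend, two-sided, with Benjamini-Hochberg adjustment over 15783 genes and a threshold of 0.05. The procedure was tested on simulated data. The 10 genes and all gene lists were chosen with earlier results of these data known. All 10 genes are named. Of every other list, up to 4 genes with the largest change past the test and the direct receptors are named, as are the 3 genes most like each chemokine. Further genes (Epcam, Krt19, Vim, Zeb1, Prrx1, Twist1, Snai2, Ptprc, Cd3e, Cd3g, Nkg7, Ly6g, Flt3, Rgs5, Nfkbia, Tnfaip3 and Cxcl3) were chosen after their values were seen. Cxcl10, Ccl2 and Cxcl16 overlap Art3, Gm17268 and Zmynd15 on the opposite strand in the annotation, so without strand their reads cannot be told apart. The libraries are described as biological replicates without saying which animals they came from. The p-values therefore measure only the spread between libraries. Some items are not reported here. The alternatives are given in the closing section.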

Additional observations from a re-analysis of the deposited data

How the results depend on the processing

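Over 19 alternatives, the number of genes of the 10 that were higher in EpCAM- lay between 2 and 4 and the number lower between 3 and 5. Of 189 values of single chemokines under alternatives, 180 kept their direction and their side of the threshold. Over all tested genes, 3197 were higher and 3653 lower as reported. With a minimum log2 fold change of 1 these were 581 and 1284, the number higher was 1907 without EpCAM+ replicate 1 and EpCAM- replicate 3, and it was 2052 without EpCAM- replicate 2 and EpCAM+ replicate 1, the last chosen after seeing the data. Leaving out 1 library gave between 2134 and 3325 higher and between 2853 and 3975 lower genes. With that minimum fold change Ccl7 (adjusted p = 0.189) and Ccl20 (adjusted p = 0.269) lost their calls, and Ccl20 was not tested with a filter at a mean of 50. The log2 fold change turned sign for Cxcl1 without EpCAM- replicate 1 (0.22), EpCAM- replicate 3 (0.19) or EpCAM+ replicate 1 and EpCAM- replicate 3 (0.39), for Cxcl3 (-0.060) and Cxcr4 (-0.0021) without EpCAM+ replicate 2 and for Nfkbia (-0.0044) without EpCAM- replicate 2. None of these passed under that setting, and the cause was not tested. With libraries left out, log2 fold changes ran from -1.24 to 0.39 for Cxcl1, -0.060 to 0.52 for Cxcl3, -0.0021 to 1.42 for Cxcr4 and -0.0044 to 0.54 for Nfkbia. Quantile normalisation moved the median of all genes by 0.13 on the log2 scale and changed no call among the 10. With the replicate number as a block, 3365 genes were higher and 3725 lower, and 3 and 4 of the 10 chemokines. Under the block 4 further ligands, 5 interferon-response genes and 2 endothelial markers were higher and 2 interferon-response genes lower, Nfkbiz lost its call (adjusted p = 0.0607), and no call of the 10 chemokines changed. Deviations of same-numbered libraries from their group means correlated at 0.41, 0.044 and 0.16 for replicates 1, 2 and 3, and EpCAM- replicate 2 correlated best with EpCAM+ replicate 3 (0.13), so the numbers were not taken to pair the samples. Depth is unknown, which limits statements on genes near the lowest values.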

Other observations

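Genes with the pattern most like each chemokine over the 6 libraries are given by Pearson r as a description. The 6 libraries fall into 2 groups, so for chemokines whose groups differ these values mostly reflect that difference, and with 15783 genes high values arise readily. The genes most like Cxcl16 were Zfr2, Mdfi and Arg2 (r of 0.999, 0.999 and 0.998), and those most like Cx3cl1 were Sox21, Nipsnap1 and Lypd6b (1.000, 0.999 and 0.999). For Cxcl5 they were Laptm5, a lysosomal gene of leukocytes, Gas2 and Tlr4, the receptor for bacterial lipopolysaccharide (0.997 for each). Ccl2 was most like Rwdd2a, Rftn2 and Cd302 (0.998, 0.997 and 0.997), and Cxcl12 was most like Psmc3ip, Gm38300 and Rftn2 (0.999, 0.998 and 0.998), so Rftn2 was among the 3 for both. Ccl7 was most like Tctn2, Dock10 and Exoc3l (0.991, 0.990 and 0.988) and Ccl20 most like Zkscan14, Ttc30b and Add3 (0.996, 0.996 and 0.994).

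For the 3 chemokines whose groups overlapped, the nearest genes were less close. They were Crebrf, Rnf217 and Rhbdf1 for Cxcl1 (r of 0.990, 0.979 and 0.977), Sat1, a gene of polyamine breakdown, Zfp691 and Tceal3 for Cxcl2 (0.981, 0.978 and 0.973) and 1700101I11Rik, Prr5l and Tle1 for Cxcl10 (0.988, 0.980 and 0.977). No other chemokine was among the 3 nearest genes of any of the 10.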
